A study of Mus musculus with 4 samples.

Results

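The transcripts of chemokines and chemokine receptors were examined in mouse helper T (Th) cells. A gene was a member if it was named in a list of 43 such genes, 28 ligands and 15 receptors, and 42 of them, 27 ligands and 15 receptors, could be read from at least 1 probe, out of 18749 genes named on the array. No probe could be matched to Cxcl11, which was not analysed here. Naive CD4 T cells (CD44low CD25negative) came from the spleens of C57BL/6J mice labelled female. The Bach2 WT cells and the Bach2 KO cells (Bach2flox/flox × CD4-Cre TG) were primed for 2 days with immobilized anti-TCR-β at 3 μg/ml and anti-CD28 at 1 μg/ml, and were then kept for 3 days with IL-2 at 2.5 ng/ml. RNA was taken either at that point (before re-stimulation) or after 4 h on immobilized anti-TCR-β with no added IL-2 (after re-stimulation). The study names CD4-Cre mice as its WT control for the lung, and for these cultures the sources used here do not say whether the WT cells carried the transgene. Cre driven by CD4 sequences is known to act across the T cell lineage from the thymus onwards, and not in Th cells alone. The study's methods give a single age range, of young adult mice, for all its experiments, and whether cells of several mice were pooled is not given in the sources used here.

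Chemokines are small secreted proteins that direct cell migration. They are grouped by the spacing of their first cysteines into CC, CXC, C and CX3C ligands, and they act on G protein-coupled receptors, most of which bind several ligands. In the T cell lineage, naive cells carry the lymph node receptor Ccr7, and effector cells exchange it for receptors of inflamed tissue. Ccr3, Ccr4 and Ccr8 are known as receptors of Th2 cells, Cxcr3 as a receptor of Th1 cells and Ccr6 of Th17 cells. Engagement of the TCR is known to induce T cells to make several ligands themselves, among them Ccl1, Ccl3, Ccl4, Ccl5 and Xcl1. Bach2 is a transcriptional repressor that recognises DNA motifs of the AP-1 type.

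A single one-colour Agilent array covering the mouse transcriptome was hybridised per condition, and the 4 arrays shared 1 slide and 1 scan. There was no replicate, so no test was made and differences were described by size, with 2-fold (1 on the log2 scale) as the rule. A signal is the scanner's background-corrected intensity, and a difference is a log2 value between arrays after each array was set to its own 75th percentile, at 436, 434, 313 and 353 in the order WT and KO before, WT and KO after re-stimulation. The error printed after ± is that of the scanner software's error model within an array, and it holds none of the spread between mice, cultures or hybridizations. A probe counts as measured where the scanner set it well above background. Where only 1 of the 2 arrays compared measured it, the other was raised to the lowest signal measured on that array (14.5 to 17.2), and the difference is a bound, written as "at least".

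The labels were checked first. The probe for Bach2 gave signals of 2932 and 2633 before and of 3310 and 3080 after re-stimulation in WT and KO cells, a difference of -0.15 and -0.28, and the sources used here do not say whether it lies in the deleted segment, and the genotype names used here are those of the labels. The Y-linked transcript Eif2s3y was not measured on the WT arrays and had signals of 1185 and 951 on the KO arrays, against the label of female mice, although the methods state that mice of both sexes were used in vitro, so that genotype and the sex of the donor mice cannot be told apart in any difference between genotypes. All 10 T cell markers were measured on every array and none differed 2-fold in any comparison. Of 10 mast cell and basophil markers, 2 and 1 were measured on the WT arrays and 7 and 7 on the KO arrays, before and after re-stimulation, and their summed signal, in units of the array's 75th percentile, was 0.487, 3.37, 1.05 and 5.42 in the order of the arrays above. Hdc was the brightest of that list on the WT arrays, with signals of 128, 230, 260 and 849 in the same order. It was higher in KO cells by 0.86 before and 1.53 after re-stimulation. Cpa3, Mcpt8, Fcer1a, Cma1 and Gata2 were measured on the KO arrays only, by at least 0.78 (Gata2) to 4.49 (Cpa3) before re-stimulation. Ms4a2, Mcpt4 and Tpsb2 of that list were not measured on any array. The neutrophil markers, of which only S100a9 and Mpo were measured, summed to 0.114, 0.762, 0.133 and 0.606, and S100a8, Elane, Ngp and Camp were not measured. The monocyte and macrophage markers summed to 27.1, 30.8, 31.6 and 29.6, almost all of it Ctss, and Lyz2, Itgam and Fcgr1 were not measured. Ctss differed between genotypes by 0.15 before and -0.10 after re-stimulation. Adgre1 was higher in KO cells by 1.16 before and 1.56 after, and Mpeg1 lay at 1.46 before and -0.45 after. None of this list was at least 2-fold lower in KO cells. The eosinophil markers summed to 0.0364, 0.165, 0.507 and 0.594, with Epx, Il5ra and Ear1 not measured. Prg2 was measured on the KO arrays only, at 53.3 and 36.2, at least 1.82 and 1.14 higher. Siglecf was measured after re-stimulation only, at 134 in WT and 140 in KO cells, a difference of -0.12. The B cell markers summed to 1.35, 1.40, 0.543 and 0.602, with Cd79a, Ms4a1, Pax5 and Cd22 not measured. The NK cell markers summed to 1.49, 3.05, 3.90 and 3.70, with Ncr1, Klra4 and Klrk1 not measured. Eomes was higher in KO cells by 1.61 before re-stimulation and lay at -0.10 after it, and Klrb1c lay at 0.32 and -0.21. Klra8 was measured on the KO arrays only, and was at least 0.54 and 0.56 higher there. The dendritic cell markers summed to 11.7, 10.5, 5.98 and 5.47, most of it H2-Ab1, with Flt3, Clec9a and Siglech not measured. H2-Ab1 lay at -0.18 and -0.15. Itgax was measured on the KO arrays only, at 65.7 and 55.7, at least 2.13 and 1.77 higher. Zbtb46 was at least 0.28 lower in KO cells before re-stimulation and lay at -0.35 after it. Of the CD8 T cell markers Cd8a could be read, and it was measured on the array of re-stimulated KO cells alone, at 63.0, at least 1.94 higher than in re-stimulated WT cells. The part of these other cells in any difference between genotypes was not tested. In these bulk samples fewer cells of a type and less RNA per cell cannot be told apart.

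Of the 42 members, 35 were measured on at least 1 array, 23 ligands and 12 receptors, and 15 on all 4 arrays. The number measured was 18 in WT cells and 24 in KO cells before re-stimulation, and 27 and 30 after it, while the probes of the whole array that were measured stayed between 53.6% and 54.0% on each. The ligands measured were 9, 12, 17 and 20 in the same order and the receptors 9, 12, 10 and 10, so that both added to the difference between genotypes before re-stimulation. The increase after it lay mostly in the ligands, while the receptors went from 9 to 10 in WT and from 12 to 10 in KO cells. The 7 members measured on no array were the ligands Ccl11, Ccl22, Cxcl1 and Cxcl12 and the receptors Ccr1, Ccr10 and Cx3cr1. The array of resting WT cells was the only one on which Ccl1, Ccl3, Ccl6, Ccl9, Ccl17 and Ccr3 were not measured, a pattern of 6 members and of 0.619% of all genes. Ccl2, Ccl7, Ccl24 and Cxcl14 were measured on the array of re-stimulated KO cells alone (1.54% of all genes).

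**Figure D1:**
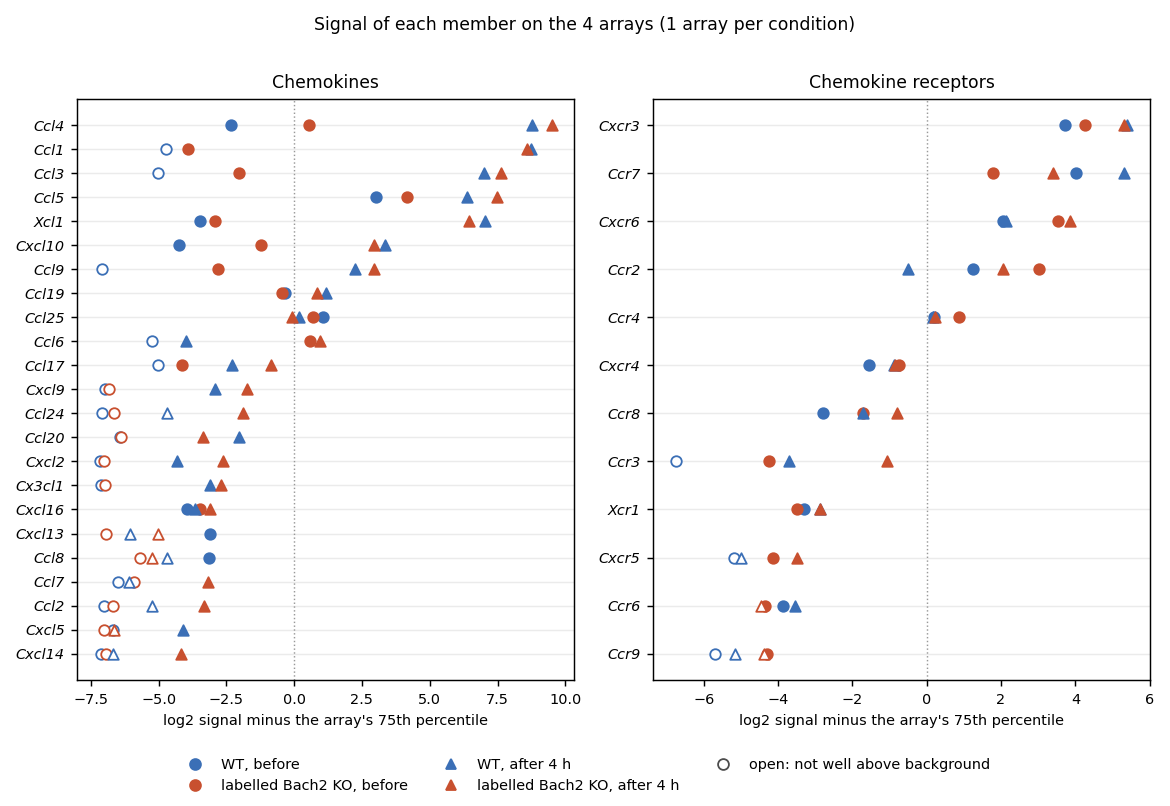
Level of the 35 members measured on at least 1 array, as log2 signal minus the array's 75th percentile (horizontal axis; 0 is the 75th percentile), 1 point per array. Circles are cells before and triangles cells after 4 h of re-stimulation, blue is WT, red is labelled Bach2 KO, and open symbols were not well above background. Ccl1, Ccl3, Ccl4, Xcl1 and Cxcl10 move from the left to the right of the panel on re-stimulation, whereas every receptor spans a narrower range than these. Levels can be compared within a gene but not between genes, which are read by different probes.

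The 300 bases around the start (250 before and 50 after) were at hand from RefSeq for 31 members in 33 windows, and were searched on both strands for 3 sets of letters. The AP-1 letters TGANTCA were found in 5 of the 33 windows, those of Ccl9, Ccr3, Ccr4, Cxcl10 and Cxcl9, against 7.81% of 32851 promoters of the same length. The NFAT letters TGGAAA lay in 11 windows (21.4% of all promoters) and the NF-kB letters GGGANTTTC in 4 (1.11%), those of Ccr3, Cxcl1, Cxcl2 and Cxcl9. A match is only a match of letters. The study gives its AP-1 consensus as TGA(G/C)TCA, which is narrower than the letters searched, and the match in Ccl9, TGAATCA, is not of that form. The stretches before the start of the 3 AP-1 holders that differed most between genotypes, and of the most induced member, Ccl1, are printed 5′ to 3′ along the gene (RefSeq, GRCm38.p6), with the matches in capitals (TGAATCA or TGAGTCA for AP-1, TGGAAA or its complement for NFAT, and in Ccr3 the complement of the NF-kB letters).
Ccl9 (chr11:83578637-83578886, minus strand): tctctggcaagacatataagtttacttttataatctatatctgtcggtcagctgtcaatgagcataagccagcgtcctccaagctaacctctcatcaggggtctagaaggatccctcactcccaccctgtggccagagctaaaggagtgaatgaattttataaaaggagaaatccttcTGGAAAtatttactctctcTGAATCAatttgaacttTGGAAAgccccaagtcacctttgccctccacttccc
Ccr3 (chr9:124021721-124021970, plus strand): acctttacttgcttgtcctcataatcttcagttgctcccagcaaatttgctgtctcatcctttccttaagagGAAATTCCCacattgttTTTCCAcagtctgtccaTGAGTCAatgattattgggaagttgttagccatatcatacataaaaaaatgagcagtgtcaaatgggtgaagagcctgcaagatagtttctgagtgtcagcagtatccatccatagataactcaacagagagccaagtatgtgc
Cxcl10 (chr5:92348890-92349139, minus strand): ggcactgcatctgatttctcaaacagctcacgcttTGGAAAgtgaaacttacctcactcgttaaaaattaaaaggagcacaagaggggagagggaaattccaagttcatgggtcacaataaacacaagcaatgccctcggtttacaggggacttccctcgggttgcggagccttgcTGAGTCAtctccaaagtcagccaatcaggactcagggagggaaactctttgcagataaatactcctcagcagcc
Ccl1 (chr11:82179813-82180062, minus strand): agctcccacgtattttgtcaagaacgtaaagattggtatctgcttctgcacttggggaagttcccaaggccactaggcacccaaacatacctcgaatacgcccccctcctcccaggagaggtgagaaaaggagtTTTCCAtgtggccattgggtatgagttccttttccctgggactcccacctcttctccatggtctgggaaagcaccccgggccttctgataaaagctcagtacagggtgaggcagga
The AP-1 letters began 53 bases before the start in Ccl9, 74 in Cxcl10 and 144 in Ccr3. In Ccl9 they lay between a pair of NFAT matches, 72 and 36 bases before the start. In Ccl1 the NFAT match lay 116 bases before the start, and its window held neither of the other sets of letters. The windows of Ccl3 and Ccl6 held none of the 3.

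Re-stimulation moved the ligands far more than the receptors. In WT cells 16 of the 29 members compared were at least 2-fold higher after it and 3 were at least 2-fold lower, against 13.2% higher and 13.5% lower of 12388 genes. In KO cells 19 of 32 were higher and none was lower, against 12.4% and 13% of 12395 genes. The median over the members compared was 1.15 in WT and 1.34 in KO cells, and that over all genes was -0.01 and 0.00. A member that passed through its re-stimulated signal alone could only be higher, so the members measured on both arrays were also counted. Of these, 8 of 16 were higher and 1 was lower in WT cells, and 12 of 22 were higher and none lower in KO cells. Among all genes measured on both arrays, 1207 were higher and 1508 lower of 11112 in WT cells. In KO cells 1164 were higher and 1463 lower of 11161. Of all ligands compared, 12 of 19 and 16 of 20 were higher in WT and KO cells, and of all receptors compared 4 of 10 and 3 of 12. The shares of all genes compared were 13.2% in WT and 12.4% in KO cells. The responses in WT and KO cells share no array, and 15 members were at least 2-fold higher in both. How many of all genes were higher in both was not counted, so this overlap has no share beside it.

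Ccl1, a ligand of Ccr8, had signals of 16.5 (not measured) in WT and 28.4 in KO cells before re-stimulation, and of 134758 and 136840 after it. It went from the floor of the array to among the brightest signals, with no spot saturated, and after re-stimulation the genotypes differed by -0.15 ± 0.20. Its rise was at least 13.48 in WT cells and 12.54 ± 0.28 in KO cells, at least 11430-fold and 5941-fold, rank 2 from the top among all genes compared in either genotype. Xcl1 (lymphotactin), the C ligand that attracts the dendritic cells carrying Xcr1, went from 39.3 and 56.6 to 41493 and 30561, a rise of 10.53 ± 0.24 in WT and 9.38 ± 0.23 in KO cells. Its order between genotypes turned, from 0.53 ± 0.26 higher in KO cells before to 0.62 lower after, at -0.62 ± 0.20. Its receptor Xcr1 was at 44.4, 38.2, 42.8 and 47.7 on the 4 arrays, close to the floor, and did not differ 2-fold in any comparison. A second probe of Xcr1 was measured on no array.

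The inflammatory CC ligands Ccl3 (MIP-1α) and Ccl4 (MIP-1β) attract monocytes and activated T cells and are read through Ccr1 and related receptors. Ccl4 had signals of 87.0 in WT and 641 in KO cells before re-stimulation, and of 136088 and 254794 after it. Ccl3 was not measured in resting WT cells (13.3) and had 106 in resting KO cells, then 39967 and 70342. Both were therefore already above the WT level in resting KO cells, by 2.89 ± 0.21 for Ccl4 and by at least 2.82 for Ccl3, and lay within 2-fold of it after re-stimulation, at 0.73 ± 0.20 and 0.64 ± 0.20. The rises were 11.09 ± 0.21 in WT and 8.93 ± 0.20 in KO cells for Ccl4, and at least 11.85 in WT and 9.67 ± 0.21 in KO cells for Ccl3. Ccl9 (MIP-1γ), a ligand of Ccr1, had the same order of signals, at 3.2 (not measured), 61.8, 1469 and 2722. It was at least 2.04 higher in KO cells before and 0.72 ± 0.20 higher after re-stimulation, and it rose by at least 7.08 in WT and by 5.76 ± 0.22 in KO cells.

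Ccl5 (RANTES), made late by effector and memory T cells and read through receptors that include Ccr1 and Ccr3, was bright throughout, at 3544 in WT and 7816 in KO cells before and 25853 and 62593 after re-stimulation. KO cells were higher by 1.15 ± 0.20 before and 1.10 ± 0.20 after, and the rise was nearly equal, 3.35 ± 0.20 and 3.30 ± 0.20. Ccl6, a CC ligand known from myeloid cells, differed far more between genotypes than between states of KO cells. Its signals were 11.6 (not measured) and 642 before and 19.4 and 681 after re-stimulation, so that the KO arrays lay far above the WT arrays in both states. The difference was at least 5.42, or 42.7-fold, before re-stimulation, rank 4 from the top of 12136 genes, and 4.96 ± 0.30, or 31.1-fold, after it, rank 11 of 12348. Re-stimulation moved it by at least 0.84 in WT cells, a bound that leaves the size of that response unknown, and by 0.38 ± 0.20 in KO cells. The summed mast cell and basophil markers had the same order of arrays, and S100a9 was likewise not measured on the WT arrays and at 150 and 114 on the KO arrays. Whether Ccl6 came from such cells was not tested. In the RefSeq order of protein-coding genes Ccl5, Ccl9, Ccl6, Ccl3 and Ccl4 follow each other with no other such gene between, and all 5 were at least 2-fold higher in resting KO cells.

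Of the CXC ligands of Cxcr3, which interferon-γ induces, Cxcl10 had signals of 22.6 in WT and 188 in KO cells before re-stimulation, and of 3185 and 2741 after it. Resting KO cells stood 3.06 ± 0.32 above resting WT cells, the largest difference before re-stimulation among members measured on both arrays, and after re-stimulation they lay at -0.39 ± 0.20. The rise was 7.62 ± 0.32 in WT and 4.17 ± 0.21 in KO cells. Cxcl9 was measured after re-stimulation only, at 41.3 in WT and 107 in KO cells, a difference of 1.20 ± 0.24 between genotypes, and its rise was at least 1.93 in WT and at least 2.97 in KO cells. Their receptor Cxcr3 was at 5785 and 8234 before and 13159 and 13926 after re-stimulation. It rose by 1.67 ± 0.20 in WT and 1.06 ± 0.20 in KO cells and differed between genotypes by 0.52 ± 0.20 before and -0.09 ± 0.20 after.

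Other ligands appeared or rose on re-stimulation, most of them from near the floor. Ccl17 (TARC), a ligand of Ccr4, had signals of 13.4 (not measured), 24.6, 64.2 and 195, a difference between genotypes of at least 0.71 before and of 1.43 ± 0.22 after re-stimulation, and it rose by at least 2.57 in WT and by 3.29 ± 0.30 in KO cells. Ccl20, the ligand of Ccr6, was measured after re-stimulation only and was the only ligand at least 2-fold lower in KO cells there, at 76.2 in WT and 34.2 in KO cells, a difference of -1.33 ± 0.29, with rises of at least 2.81 and 1.32. Cx3cl1 (fractalkine) was measured after re-stimulation only too, at 36.0 and 54.6, and did not differ 2-fold between genotypes (0.42 ± 0.26). Ccl19, a ligand of Ccr7 known mainly from lymph node stroma, was at 346, 315, 711 and 633. It rose by 1.52 ± 0.20 in WT and 1.31 ± 0.21 in KO cells, and a second probe of it was measured on no array.

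A set of ligands was at the floor except on the array of re-stimulated KO cells, as was Cd8a. The monocyte attractants Ccl2 and Ccl7, which act on Ccr2, had signals there of 34.7 and 39.0, and 8.3 and below on the other arrays. The eotaxin Ccl24, a ligand of Ccr3 that attracts eosinophils, had 95.9 there and 12.1 and below elsewhere. The differences after re-stimulation were at least 1.08 for Ccl2, 1.25 for Ccl7 and 2.55 for Ccl24. Cxcl2, a neutrophil attractant, was measured after re-stimulation in both genotypes, at 15.7 in WT and 57.7 in KO cells, a difference of 1.70 ± 0.35. The Ccl2 probe is spotted several times on each array, and all 9 spots used on the array of re-stimulated KO cells were measured, between 27.9 and 45.7, while none was on the other arrays. Ccl8, another monocyte attractant, and Cxcl13, the B cell attractant read through Cxcr5, were measured in resting WT cells only, at 48.8 and 50.8. In resting KO cells they were at least 1.53 and 1.59 lower.

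For the ligands left, no difference or bound reached 2-fold by the probe used. Ccl25, the gut ligand of Ccr9, was at 909, 705, 358 and 332, and lay at -0.87 ± 0.20 in WT and -0.78 ± 0.20 in KO cells after re-stimulation. Cxcl16, the ligand of Cxcr6, was between 24.6 and 41.1 on the 4 arrays by its brighter probe and differed by 0.57 ± 0.35 between genotypes after re-stimulation, where the other probe gave 1.14. Cxcl5 and Cxcl14 were each measured on 1 array, at 18.0 in re-stimulated WT cells and at 19.6 in re-stimulated KO cells, close to the floor, so their differences are bounds that leave the size unknown.

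**Figure D2:**
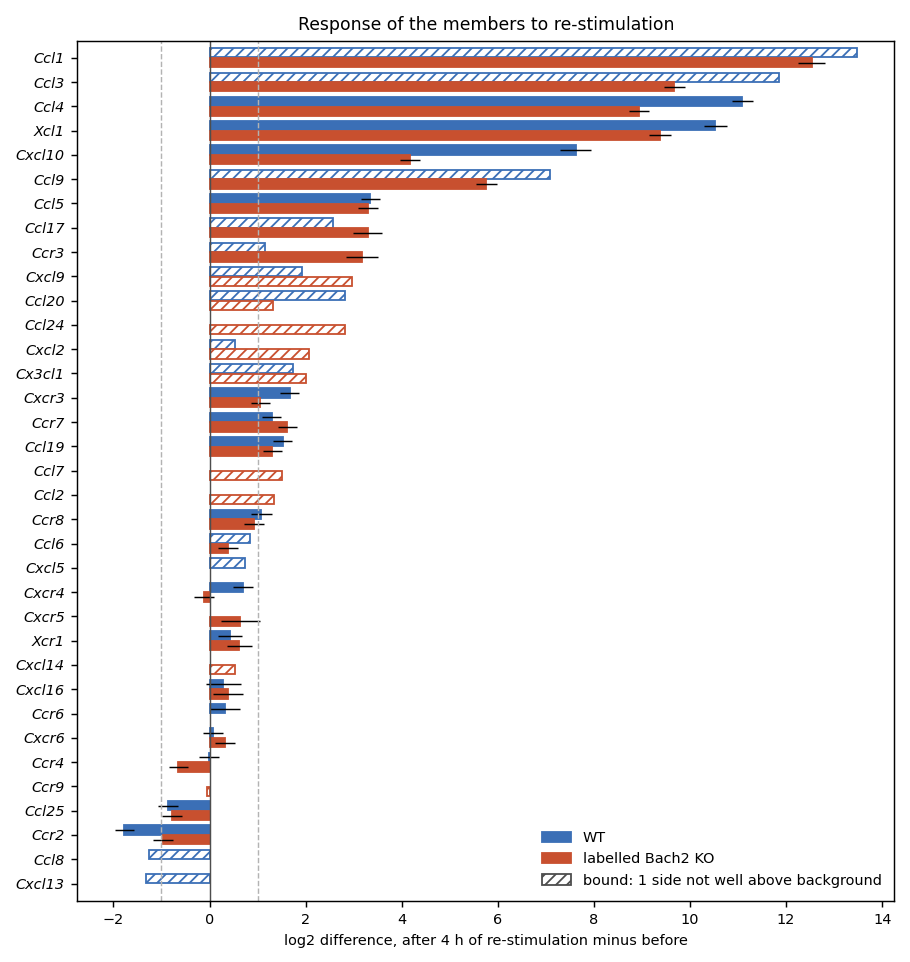
Response to re-stimulation of each member with a difference in at least 1 genotype, as the log2 difference of the array after 4 h minus that before (horizontal axis, bars from 0), with WT in blue and labelled Bach2 KO in red. Hatched bars are bounds, error bars are the scanner's error model, and dashed lines mark 2-fold. The 4 longest pairs are Ccl1, Ccl3, Ccl4 and Xcl1, between 8.93 and 13.48, and the receptor Ccr2 points down in both genotypes.

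Between genotypes more members were higher than lower in KO cells. Before re-stimulation 9 of the 26 members compared were at least 2-fold higher in KO cells and 3 were lower, against 5.26% and 2.82% of 12136 genes. After re-stimulation 11 of 32 were higher and 2 lower, against 5.17% and 3.85% of 12348 genes. The medians were 0.69 and 0.60, against 0.00 and 0.02 over all genes. With members measured on both arrays alone the counts were 6 higher and 1 lower of 16 before, and 8 higher and 2 lower of 25 after re-stimulation. Among all genes measured on both arrays, 425 were higher and 221 lower of 11287 before, and 436 higher and 369 lower of 11285 after it. The comparisons before and after share no array. Ccl5, Ccl6, Ccr2 and Cxcr6 were at least 2-fold higher in KO cells in both states, and Ccr7 alone was at least 2-fold lower in both. The same overlap between the states was not counted over all genes.

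Ccr7, the receptor that brings naive and central memory T cells into lymph nodes, had signals of 7019 in WT and 1479 in KO cells before re-stimulation and of 12309 and 3695 after it. Both KO arrays lay below both WT arrays. The difference was -2.24 ± 0.20 before, rank 33 from the bottom of 12136 genes, and -1.91 ± 0.20 after, rank 114 of 12348. Re-stimulation raised it in both, by 1.29 ± 0.20 in WT and 1.62 ± 0.20 in KO cells. Ccr2, the receptor of Ccl2 and Ccl7 on monocytes and effector T cells, showed the opposite order, at 1042 and 3503 before and 219 and 1452 after re-stimulation. KO cells were higher by 1.76 ± 0.20 and 2.56 ± 0.21, and a second probe gave 1.63 before re-stimulation. On re-stimulation Ccr2 moved by -1.77 ± 0.21 in WT cells, the only receptor at least 2-fold lower there, and by -0.97 ± 0.20, just within 2-fold, in KO cells.

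Cxcr6, the receptor of Cxcl16 on effector and tissue-resident T cells, was at 1820 and 5051 before and 1367 and 5125 after re-stimulation. The KO arrays were above the WT arrays by 1.48 ± 0.20 and 1.73 ± 0.20, and re-stimulation moved it by 0.07 ± 0.20 in WT and 0.32 ± 0.20 in KO cells. Of the receptors linked to Th2 cells, Ccr8 was at 63.1 and 132 before and 95.2 and 203 after re-stimulation. KO cells were higher by 1.08 ± 0.22 and 0.92 ± 0.21, so that its values lay on either side of 2-fold and within their errors of each other. Re-stimulation moved it by 1.07 ± 0.22 in WT and by 0.92 ± 0.21 in KO cells. Ccr3, the eotaxin receptor of eosinophils, basophils and some Th2 cells, was at 4.0 (not measured), 23.0, 24.1 and 169. It was at least 0.61 higher in KO cells before and 2.64 ± 0.31 higher after re-stimulation, rank 92 of 12348 genes, and rose by at least 1.15 in WT and 3.17 ± 0.33 in KO cells. A second probe of Ccr3 was measured on no array. Of the mast cell and basophil markers measured on both KO arrays, Hdc was higher after re-stimulation by 2.18 in KO cells, while the other 6 moved there by -0.50 (Cpa3) to 0.41, and the part of such cells in the Ccr3 signal was not tested. Ccr4 was at 497, 788, 353 and 409, higher in KO cells by 0.67 ± 0.20 before and by 0.04 ± 0.21 after re-stimulation, with 0.71 and 0.09 by its second probe.

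For the other receptors no difference or bound reached 2-fold, and a bound under 2-fold leaves the size unknown. Cxcr4, the receptor of Cxcl12, was at 148, 257, 171 and 194, with a difference between genotypes of 0.81 ± 0.21 before and 0.01 ± 0.21 after re-stimulation by its brighter probe, and of 0.21 and -0.87 by the other, so its probes did not give the same value. Cxcr5, the receptor that brings Tfh and B cells to follicles, was measured on the KO arrays only, at 24.7 and 31.3, and was at least 0.71 and 0.93 higher there. Ccr6 was at 29.8, 21.2, 26.9 and 15.9 (not measured), -0.49 ± 0.36 before and at least 0.81 lower after re-stimulation. Ccr9, a gut homing receptor, was measured in resting KO cells only, at 22.0, at least 0.55 higher than in resting WT cells.

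**Figure D3:**
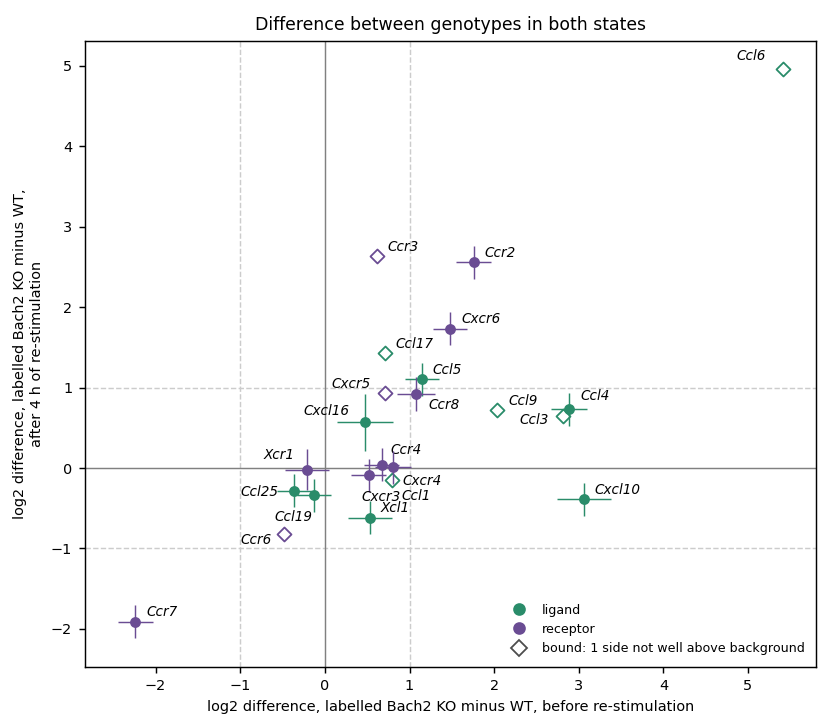
Difference between genotypes of the members compared in both states, as log2 labelled Bach2 KO minus WT before (horizontal axis) and after 4 h of re-stimulation (vertical axis). Green points are ligands and purple points receptors, error bars are the scanner's error model, diamonds have a bound on at least 1 axis, and dashed lines mark 2-fold. Ccl6 lies at the upper right and Ccr7 at the lower left, and Ccl3, Ccl4 and Cxcl10 lie far to the right but between the dashed lines of the vertical axis.

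Of 5 receptors without G protein signalling, which remove or present chemokines, only Ccrl2 was measured. Ackr1, Ackr2, Ackr3 and Ackr4 were not measured on any array, and Ccrl2 was at 512, 404, 1182 and 632. Ccrl2 rose by 1.69 in WT and 0.94 in KO cells, and it was 1.08 lower in KO cells after re-stimulation (-1.08), against -0.34 before. Of 34 genes that carry the signal of chemokine receptors, 3 were at least 2-fold higher and 2 lower in KO cells before re-stimulation, and 1 higher and 2 lower after it, with medians of 0.01 and 0.04. These are shares near the 5.26% and 2.82% of all genes before and the 5.17% and 3.85% after re-stimulation. Re-stimulation lowered more of them than it raised, with 3 higher and 12 lower in WT and 3 higher and 13 lower in KO cells, at medians of -0.67 and -0.79, against 13.2% higher and 13.5% lower of all genes in WT and 12.4% and 13% in KO cells.

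The genes of that list that were higher after re-stimulation in both genotypes were Rgs1, Rgs2 and Rgs16, members of the family of proteins that shorten G protein signals. Rgs16 had signals of 48.2 and 159 before and 11990 and 21824 after re-stimulation in WT and KO cells, and Rgs1 had 652, 4852, 17430 and 24563. Like Ccl3 and Ccl4, both were higher in resting KO cells, by 1.72 and 2.90, and were within 2-fold after re-stimulation, at 0.69 and 0.32. Rasgrp2, an activator of the Rap1 GTPase that switches on integrins, was at 1024, 416, 189 and 34.9, lower in KO cells by -1.29 before and -2.61 after re-stimulation. Arrb1, a β-arrestin, was at 13583, 9293, 2399 and 1076, with differences of -0.54 and -1.33.

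The adhesion and homing molecules that act with chemokines were set beside them in a list of 18 genes, all measured on each array. In KO cells 4 were at least 2-fold higher and 1 lower before re-stimulation, and 3 were higher and 4 lower after it, against 5.26% and 2.82% of all genes before and 5.17% and 3.85% after, so that the 1 lower gene before is near the share of all genes. S1pr1, the receptor by which lymphocytes leave lymph nodes, was at 3856, 2166, 500 and 72.1, with differences of -0.83 before and -2.97 after re-stimulation, and Itga4, a chain of the integrin VLA-4, gave -1.23 and -1.94. The genes higher in KO cells in both states were Itgae (CD103), an integrin chain of tissue-resident T cells, by 4.10 and 3.79, Gcnt1, an enzyme that builds selectin ligands, by 2.90 and 3.31, and Ltb4r1, the leukotriene B4 receptor of effector cells, by 2.55 and 2.45. Gpr183, the oxysterol receptor that positions lymphocytes in lymphoid tissue, changed its order, from 1.16 before to -0.64 after re-stimulation.

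**Figure D4:**
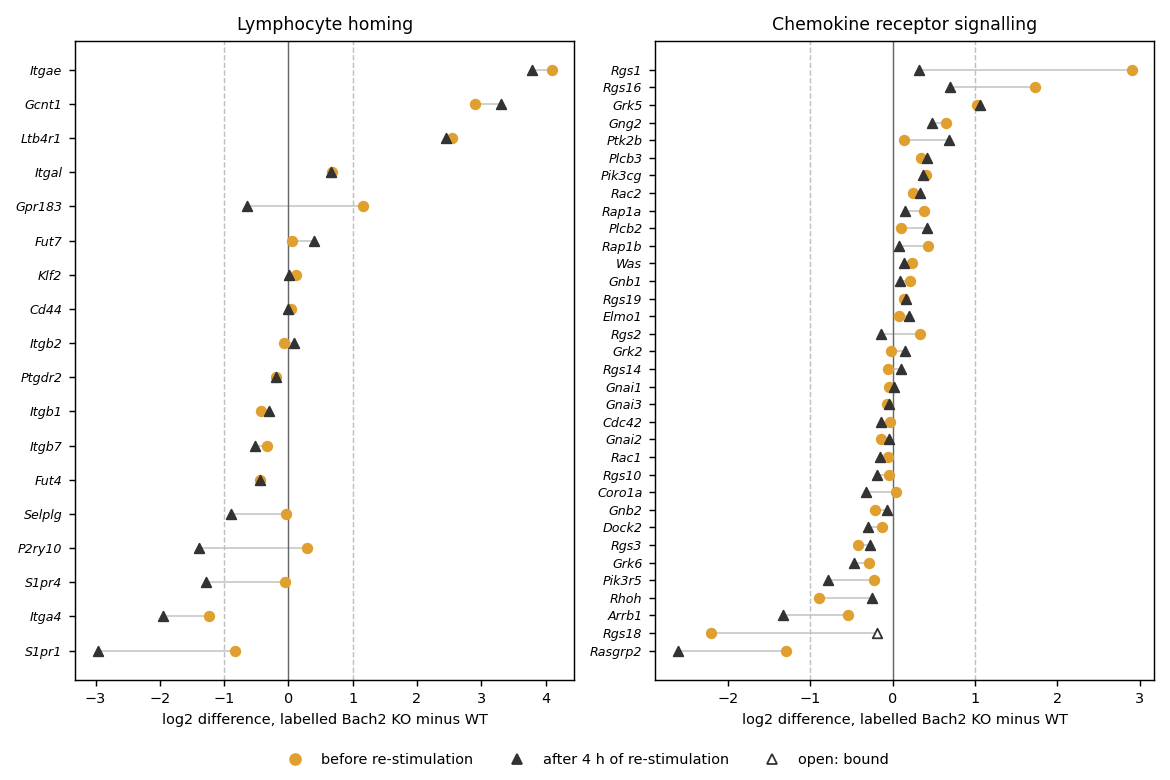
Difference between genotypes for the genes of lymphocyte homing (left) and of chemokine receptor signalling (right), as log2 labelled Bach2 KO minus WT (horizontal axis), with circles for cells before and triangles for cells after 4 h of re-stimulation, an open symbol for a bound, and dashed lines at 2-fold. Itgae, Gcnt1 and Ltb4r1 lie to the right in both states and Itga4 to the left, and in the right panel most genes lie between the dashed lines.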

How the data were processed

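Total RNA of each of the 4 conditions was read on 1 one-colour Agilent array. The authors deposited an intensity per spot made with Feature Extraction 10.7 per the labels (10.7.3.1 per the file headers), after that software's own background subtraction and detrending, with flags and an error beside it. The genome build behind the array's annotation is not given for these arrays in the sources used here. The authors deposited log2 values per probe as well, and these lay within 0.01 of the log2 intensities scaled to the 75th percentile for at least 41001 of 41173 probes per array. Their column medians were -4.09, -4.03, -3.80 and -3.77, and they are not centred per gene.

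Control spots were left out, outlier spots (107 to 120 per array) were dropped, spots of a probe were averaged, and a probe was measured where at least 0.5 of its spots were well above background. No spot was saturated. Probes were named through RefSeq accessions (27479 probes, 66.7%), and a gene was read from its probe of highest mean log2 signal. The 42 members had 54 probes, and 12 members had several. Signals were divided by the array's 75th percentile and differences taken on the log2 scale. A gene was compared where at least 1 of the 2 arrays measured it. The median SD between probes of 1 gene was 0.09 and 0.11 for the differences between genotypes and 0.16 and 0.14 for the responses. The single array per group limits the precision.

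Members measured on any array were named where they differed 2-fold or were receptors, and others were named by range. The members and lists were chosen with earlier results of these data known. The alternatives were other scalings (median, quantile, the 75th percentile of measured probes, Cd3e), normexp with an offset of 50, the authors' table, the mean over probes, other filters, and 3-fold. Scripts (Python 3.11.15, numpy 2.4.6, pandas 2.3.3, matplotlib 3.10.9, R 4.3.3, limma 3.58.1) were tested on simulated data. The study's ChIP-seq libraries were not used here. A gene of the homing list is not reported here, and its counts leave it out.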

Additional observations from a re-analysis of the deposited data

Results flagged for a closer look

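For 2 ligands, Cxcl10 and Xcl1, both measured on all 4 arrays, the difference between genotypes pointed one way before re-stimulation and the other way after it. Cxcl10 was higher in KO cells by 3.061 on the log2 scale before re-stimulation and lay at -0.3903 after it. Xcl1 was at 0.534 before and at -0.6152 after re-stimulation. With 1 array per condition the change between the states was not tested.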

How the results depend on the processing

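No paired analysis was possible because each group holds 1 array, and for the same reason no replicate could be left out. Of the 63 differences of single members past 2-fold, 37 stayed past it under every alternative that gave a value, and none of the 63 turned its direction, whereas some differences close to 0, such as that of Ccl19 between genotypes before re-stimulation (-0.13, and 0.01 with Cd3e), changed sign. Most calls were lost under normexp with its offset of 50, for members near the floor, such as Ccl3 and Ccl9 before re-stimulation, at 0.96 and 0.72. Under normexp the medians over members were 0.23 and 0.26 between genotypes, before and after re-stimulation, and 0.56 and 0.73 for the responses of WT and KO cells. The counts were then 6 higher and 1 lower before, where the main analysis gave 9 and 3. They were 6 higher and 1 lower after, 10 higher and 1 lower for the WT response, and 1 lower for the KO response. In this paragraph, counts and medians that stayed close to those of the main analysis are mostly left out. With both arrays measured, the counts were 6 higher and 1 lower before, 8 higher and 1 lower for the WT response and 12 higher for the KO response. The medians of the responses were then 0.88 and 1.18. With no filter or floor the median was 0.46 before and 0.88 and 0.99 for the responses. The 3-fold rule left 6 higher and 1 lower after re-stimulation, and 1 lower for the WT response. Scaling to Cd3e gave medians of 0.83 before and 1.45 and 1.59 for the responses, quantile normalization 0.58, 0.95 and 1.18, and scaling to the median 0.85 and 1.07 for the responses, with 2 members lower in the KO response. With Cd3e as the reference, the all-gene median shifted by 0.27 and 0.25 for the responses and by 0.13 and 0.11 between genotypes, and scaling to the median shifted it by -0.30 and -0.26. Of all genes past 2-fold, 49.4% and 48.9% were higher in the WT and KO responses, against 29.1% and 30.8% after scaling to the median and 71.5% and 67.7% with Cd3e. These causes were not tested. Signals near the floor, 14.5 to 17.2, limit every bound.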

Other observations

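A pair of ligands outside the list of members, chosen after their values were seen, had the pattern of Ccl2, Ccl7 and Ccl24. Cxcl3, a neutrophil attractant related to Cxcl2, had a signal of 149 on the array of re-stimulated KO cells and was not measured on the other arrays (3.5 and below), at least 3.18 higher than in re-stimulated WT cells on the log2 scale. Ccl12, a monocyte attractant, had 39.7 there and 5.6 and below on the other arrays, at least 1.28 higher. In the RefSeq order of protein-coding genes Ccl2, Ccl7, Ccl11, Ccl12, Ccl8 and Ccl1 follow each other with no other such gene between. Of these neighbours Ccl2, Ccl7 and Ccl12 were measured in re-stimulated KO cells only, Ccl8 in resting WT cells only and Ccl11 on no array, while Ccl1 rose to similar signals in both genotypes.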
